A study of Papaver somniferum with 9 samples.

Results

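The unigenes described here are 100 whose expression climbed from root over stem to leaf in opium poppy with no overlap between the tissues. They were chosen by their own expression values in all 9 samples. A unigene entered when it lay above 1 RPKM in every sample, when its lowest stem value exceeded its highest root value, and when its lowest leaf value exceeded its highest stem value. The ratio of the lowest stem to the highest root value is called the first step, and the ratio of the lowest leaf to the highest stem value the second step. Of the 61856 unigenes measured, 20528 lay above 1 RPKM in all 9 samples and 882 of these (4.30%) had both steps above 1. The 882 were ranked by the smaller of the 2 steps, and the first 100 form the set. Because the rule used every sample and both neighbouring comparisons, the differences between tissues within the set are a description and carry no test.

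The samples were root, stem and leaf of the cultivar B1 at the filling stage, which follows the fall of the flowers, with 3 replicates of each tissue. All plants grew in 1 experimental plot, no treatment was applied, and the 3 tissues share cultivar and stage. Root was an underground piece, stem a piece from the middle of the stem, and leaf the top leaf, so each tissue stands for 1 position on the plant. The methods describe the replicates as independent samples and do not say whether root, stem and leaf of 1 number came from the same plant. A unigene stands for 1 locus of a long-read transcriptome, and the 61856 unigenes carry 61856 distinct locus numbers. That transcriptome was made from RNA of B1 samples pooled in equal amounts, most of them leaf samples of several growth stages. RPKM divides read numbers by unigene length and by sample depth, so it allows levels to be compared between unigenes. The values hold no read counts, and no counting interval or detection floor can be given. The summed RPKM ran from 898884 to 1092540 per sample. RNA integrity was lower in the leaf samples than in root and stem, so leaf tissue and lower RNA integrity cannot be told apart.

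As background, the root of a herbaceous plant lives on sugars brought from above, the stem carries them and is often green itself, and the leaf makes them by photosynthesis. In opium poppy, latex-bearing cells called laticifers run along the phloem through all of these organs and store benzylisoquinoline alkaloids, the compound class of morphine. The deposited values do not pair the unigene IDs with gene names, and 0 of the 61856 IDs were found in the RefSeq gene table of opium poppy. The functional annotation that the study describes was not used here. No role is therefore given to any member, and the tissue labels were not checked against marker genes. The IDs of 2 members are printed, and the other members are called by their rank in the set.

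Across the 100 unigenes, the median level was 7.69, 6.25 and 4.11 RPKM in root replicates 1, 2 and 3. It was 50.5, 53.2 and 34.0 RPKM in the stem replicates, and 321, 380.4 and 407 RPKM in the leaf replicates. On tissue means the median member was 6.86 times higher in stem than in root and 7.76 times higher in leaf than in stem. From root to leaf the median fold was 56.6, and single members ran from 12.2-fold to 2109-fold. A fold of up to 25 was found in 9 members, of 25 to 50 in 34, of 50 to 100 in 29, of 100 to 500 in 26 and of over 500 in 2. Among all 20528 unigenes above 1 RPKM the median ratio of leaf to root was 0.763 on the deposited scale. A comparison of scalings, added after the values were seen, gave 0.950 for them after median-ratio scaling, 0.664 after scaling to equal sums and 0.835 after quantile normalization, while the median fold of the members ran from 49.5 to 70.6. In root, 57 members stayed under 10 RPKM in every sample and 33 under 5 RPKM, against 39.9% and 16.1% of all 20528. In leaf, 90 members exceeded 100 RPKM in every sample, against 19 in stem and 1 in root. Of all 20528, 6.32% did so in leaf, 5.02% in stem and 4.37% in root.

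**Figure D1:**
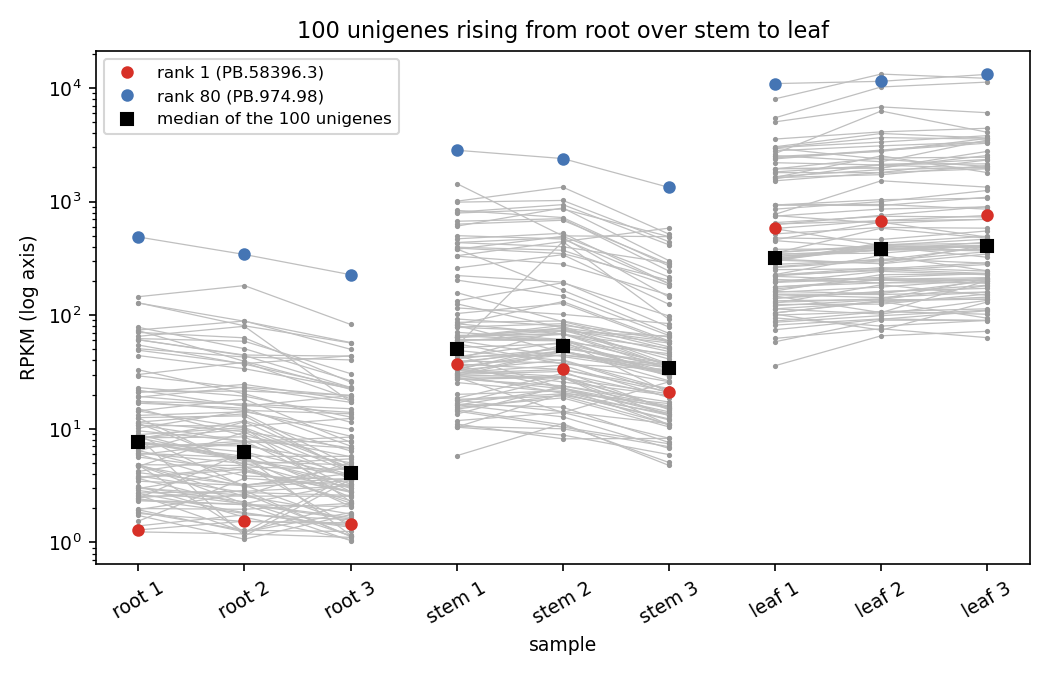
RPKM of the 100 unigenes (log axis) in each of the 9 samples. Grey points are single unigenes, joined by grey lines within a tissue, black squares are the median of the 100, and coloured points are the members of rank 1 and rank 80. The median climbs from 4.11 to 7.69 RPKM in root over 34.0 to 53.2 in stem to 321 to 407 in leaf, and replicate 3 lies lowest in root and in stem.

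The member of rank 1, PB.58396.3, had 1.29, 1.54 and 1.45 RPKM in root replicates 1, 2 and 3. It had 37.3, 33.3 and 21.1 RPKM in the stem replicates and 579.9, 681 and 755 RPKM in the leaf replicates. The root mean was 1.43 ± 0.127 RPKM, the stem mean 30.6 ± 8.42 and the leaf mean 672 ± 87.9 (SD, n = 3 per tissue). It climbed 21.4-fold from root to stem and 22.0-fold from stem to leaf, nearly equal amounts. By level it was number 30073 of all unigenes in root, number 4821 in stem and number 183 in leaf.

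Rank 2 followed the same course, with 2.37, 2.16 and 1.61 RPKM in root, 81.5, 47.5 and 29.7 in stem and 931, 924 and 1093 in leaf. Ranks 1 and 2 were the only members with both steps above 10, at 13.7 and 15.6 for rank 1 and 12.5 and 11.3 for rank 2. Rank 3 had 3.0, 2.61 and 5.08 RPKM in root, 56.3, 37.2 and 33.4 in stem and 753, 645 and 701 in leaf. It reached the leaf level by a larger second step of 11.5, against a first step of 6.57.

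The member of rank 4 had the largest rise of the set. It had 1.99, 1.96 and 2.21 RPKM in root, lay at 334, 445 and 92.1 RPKM in stem and reached 2648, 6270.3 and 4075 RPKM in leaf. Its mean was 141-fold higher in stem than in root and 14.9-fold higher in leaf than in stem, 2109-fold in all. Its stem replicates spread 4.83-fold and its leaf replicates 2.37-fold, so these folds rest on widely spaced values, although the tissues did not overlap. It was number 26434 by level in root and number 11 in leaf.

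Rank 5 showed the opposite balance, with 6.12, 4.96 and 2.79 RPKM in root, 64.6, 69.2 and 36.3 in stem and 1658, 1912 and 2000.3 in leaf. Its second step of 24.0 exceeded its first step of 5.92. Its leaf replicates spread only 1.21-fold.

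Further down the set the smaller of the 2 steps fell and the order of the tissues stayed the same, both by construction. The member of rank 25 had 8.82, 3.08 and 3.50 RPKM in root, 126, 77.3 and 35.6 in stem and 654, 742 and 733 in leaf. Rank 50 was a low one, with 2.33, 2.15 and 1.04 RPKM in root, 14.3, 10.4 and 7.39 in stem and 147, 105 and 202 in leaf. Rank 100, the last inside, had 8.90, 10.3 and 4.56 RPKM in root, 34.0, 48.8 and 26.5 in stem and 121, 137 and 138 in leaf, and its smaller step was 2.48. The first unigene outside had 16.2, 4.62 and 3.68 RPKM in root, 40.3, 40.7 and 39.96 in stem and 274, 260.0 and 239 in leaf, with a smaller step of 2.46. The limit of the set therefore falls within a gradual series. Of the 882 unigenes, 330 had a smaller step above 1.5, 170 above 2, 58 above 3, 26 above 4 and 9 above 5.

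The first step was the smaller one in 73 members and the second in 27. The median first step was 3.34 (range 2.49 to 41.7) and the median second step 5.23 (range 2.48 to 30.01). A first step above 5 was seen in 18 members and a second step above 5 in 51. These ratios compare the extreme replicates, so a wide spread in either tissue lowers them. The replicates spread by a median of 1.97-fold in root and 1.92-fold in stem and 1.27-fold in leaf. The part of this spread in the sizes of the steps was not tested.

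**Figure D2:**
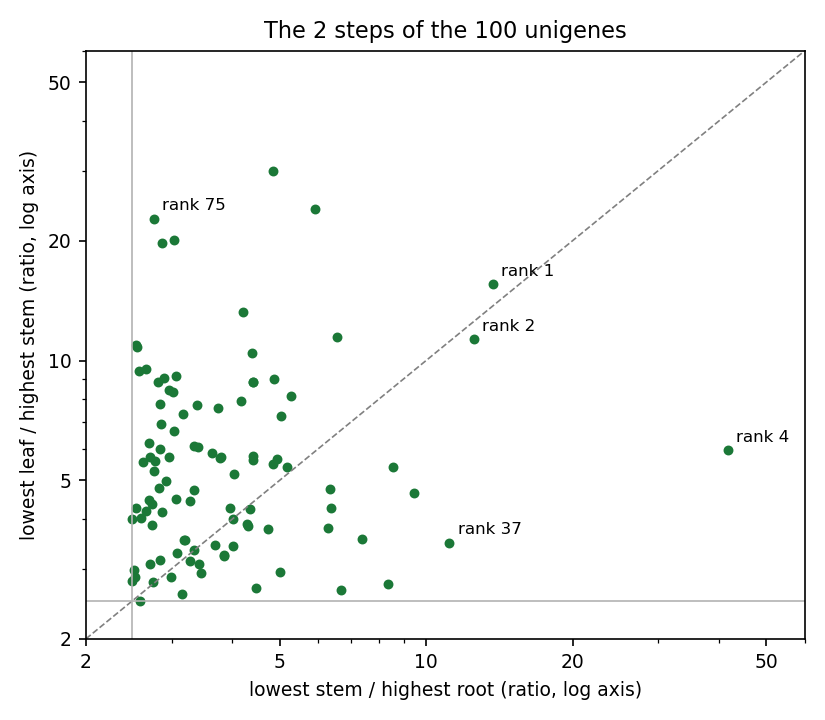
First step (lowest stem over highest root value, horizontal) against second step (lowest leaf over highest stem value, vertical) for the 100 unigenes, both as ratios on log axes. The dashed line marks equal steps and the grey lines the smallest step in the set, 2.48. Of the points, 73 lie above the dashed line, and rank 4 lies far to the right at a first step of 41.7.

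Measured on tissue means rather than extreme replicates, stem lay near the middle between root and leaf. On the log2 scale a median of 48.7% of the rise from root to leaf was already reached in stem, with a range of 31.4% to 71.0%. Ranking by the smaller step favours unigenes with 2 like steps, so a middle position is partly built into the set. Over all 882 rising unigenes the median was 41.4%, with quartiles of 32.6% and 51.4%. Between 40% and 60% was reached in 79 members, over 60% in 11 and under 30% in 0. The rise in log2 units was 2.78 from root to stem and 2.96 from stem to leaf at the median. Across the 100 members the sizes of the 2 rises were only weakly related (Pearson's r 0.19, Spearman's rho 0.20), a description across unigenes that share the same stem samples.

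The member of rank 37 reached most of its rise in stem, 71.0%. It had 4.81, 1.23 and 3.91 RPKM in root, 53.7, 445 and 584 in stem and 2950.0, 2360.3 and 2037 in leaf. Its stem replicates spread 10.9-fold, the widest range of the set, and stem replicate 1 alone lay low. Rank 75 reached the least in stem, 31.4%. It had 3.69, 4.43 and 2.33 RPKM in root, 18.1, 20.3 and 12.2 in stem and 462, 659 and 487 in leaf, so most of its rise lay between stem and leaf.

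The rise from stem to leaf was the larger one in 55 members and the rise from root to stem in 45. Over all 882 rising unigenes, the rise from stem to leaf was the larger one in 649. The near-even split of the members therefore does not stand for all rising unigenes. The part of the ranking by the smaller step in this difference was not tested. Among the members, the split was not settled by the replicates. Over the 27 ways to take 1 root, 1 stem and 1 leaf sample, 10 members always had the larger rise from stem to leaf and 1 always had it from root to stem, and the other 89 changed with the samples taken. With the samples numbered 1, 49 members had the larger rise from stem to leaf, with those numbered 2 it was 40, and with those numbered 3 it was 83.

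**Figure D3:**
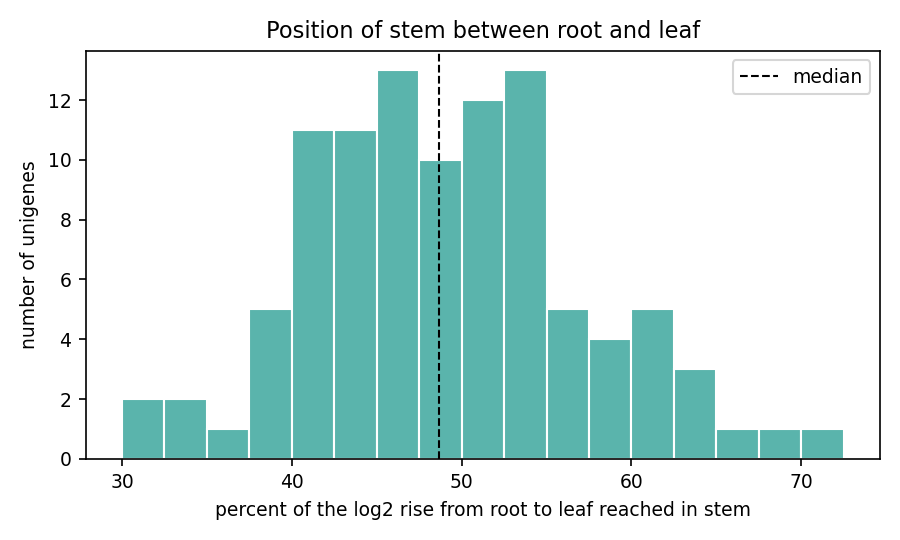
Histogram of the share of the log2 rise from root mean to leaf mean that was reached in stem, in percent, over the 100 unigenes. The dashed line is the median, 48.7%, and 79 of the 100 lie between 40% and 60%. The ranking by the smaller step favours such a middle position.

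The set took up a growing part of the whole expression. Its summed share of all RPKM was 0.244%, 0.217% and 0.131% in root replicates 1, 2 and 3. In the stem replicates it was 1.94%, 1.74% and 0.874%, and in the leaf replicates 9.83%, 11.8% and 12.1%. The root mean was 0.197% ± 0.0587, the stem mean 1.52% ± 0.567 and the leaf mean 11.3% ± 1.24 (SD, n = 3 per tissue), and the leaf mean was 57.1 times the root mean. These shares depended on how the set was chosen and on the scale of the values. Chosen after quantile normalization, the 100 held 0.0745% of the normalized sum in root, 0.659% in stem and 6.31% in leaf. There both the set and the scale changed. Chosen without a floor on the deposited scale, the 100 held 0.0247%, 0.333% and 3.92%. With a floor of 0.1 RPKM they held 0.0765%, 0.788% and 7.24%, and with 5 RPKM 0.336%, 2.14% and 12.6%. Chosen without root replicate 2, they held 0.130% in root. Ranked by level, 27 members were among the 100 most abundant unigenes of leaf, 2 among those of stem and 0 among those of root. The median member was number 358.5 by level in leaf, number 3309.5 in stem and number 15468.5 in root. In bulk tissue, fewer cells of a type and less RNA per cell cannot be told apart, so these shares do not say in how many cells a unigene was expressed.

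Within leaf the sum was concentrated in few members. The 29 members above 1000 RPKM held 82.1% of the members' summed leaf mean, and the 10 highest held 49.5%. The most abundant was PB.974.98, of rank 80. It had 488, 343 and 227 RPKM in root, 2832, 2392 and 1334 in stem and 10930.3, 11445 and 13178 in leaf. This unigene was also the highest of the set in root and number 2 of all unigenes in leaf. The root mean was 353 ± 131 RPKM, the stem mean 2186 ± 770.0 and the leaf mean 11851 ± 1178 (SD, n = 3 per tissue), a 33.6-fold rise. At the other end, the member of rank 47 had 1.24, 1.19 and 1.11 RPKM in root, 5.80, 11.1 and 4.77 in stem and 35.95, 65.9 and 72.2 in leaf. Its fold of 49.2 from root to leaf was larger than that of PB.974.98 at a far lower level.

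Members with a high leaf level were also higher in the other tissues. The 29 members above 1000 RPKM in leaf had a median root mean of 38.3 RPKM and a median stem mean of 361 RPKM. The 33 members between 100 and 300 RPKM in leaf had medians of 4.17 and 23.6 RPKM. The median fold from root to leaf was 81.4 in the first group and 42.1 in the second. For the 30 members between 300 and 1000 RPKM in leaf it was 65.3, and for the 8 under 100 RPKM it was 38.5. The groups were cut by the leaf level, which also enters the fold, so larger folds at higher leaf levels are partly built in. Across the 100 members the log2 means correlated with r 0.92 for the pair of stem and leaf, 0.87 for root and stem and 0.74 for root and leaf. These describe members that were all selected for the same order of tissues.

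**Figure D4:**
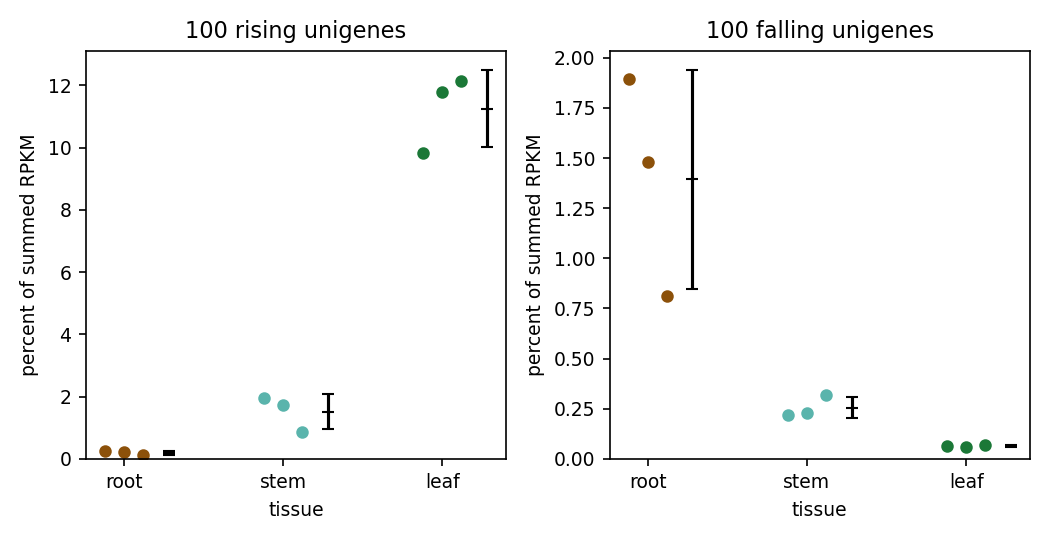
Percent of the summed RPKM of each sample held by the 100 rising unigenes (left) and by the 100 unigenes falling in the opposite order (right), on axes of different height. Points are replicates 1 to 3 from left to right, and the black bars give the mean and SD of the 3. The rising set goes from 0.197% in root to 11.3% in leaf, and the falling set from 1.39% in root to 0.0638% in leaf.

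Within a tissue, most members were high or low in the same replicates. Root replicate 3 was the lowest root sample in 74 of the 100 members, and stem replicate 3 the lowest stem sample in 89. Relative to the tissue mean on the log2 scale, the median member lay at -0.41 in root replicate 3 and at -0.50 in stem replicate 3. Over all 20528 unigenes above 1 RPKM these samples were shifted in the same direction by less, at -0.20 and -0.31, and they were the lowest of their tissue in 58.4% and 61.6% of unigenes. In leaf the order was different, since leaf replicate 1 was the lowest in 78 members and leaf replicate 3 the highest in 65. Over all unigenes above 1 RPKM, leaf replicate 1 was the lowest in 28.5% and leaf replicate 3 the highest in 39.6%. When each sample was first divided by its median ratio to the others, 88 of the 100 members remained in the set.

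Ratios of stem to root spread less among same-numbered pairs than among the other pairs. The median ratio of stem to root was 6.31, 7.43 and 7.29 for the pairs numbered 1, 2 and 3. Pairs with different numbers ran from 3.69, for stem replicate 3 over root replicate 1, to 13.3, for stem replicate 2 over root replicate 3. No such evenness was seen between stem and leaf, where the pairs numbered 1, 2 and 3 had median ratios of 6.08, 6.85 and 12.6. In the pair numbered 3, the stem sample lay low within its tissue and the leaf sample high. A correlation across unigenes leaves out a shift that all of them share. By that measure, same-numbered root and stem samples had r of 0.11, 0.14 and 0.13 over the 100 members, against 0.54, 0.58 and 0.61 over all 20528 unigenes. Differently numbered root and stem samples had r of -0.09 to -0.04 over the members and of -0.56 to 0.18 over all 20528. The values correlated were log2 deviations from the tissue mean, which cancel out within a tissue for each unigene. Positive r in same-numbered pairs therefore lowers r in the other pairs by construction, and the latter is no separate evidence.

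**Figure D5:**
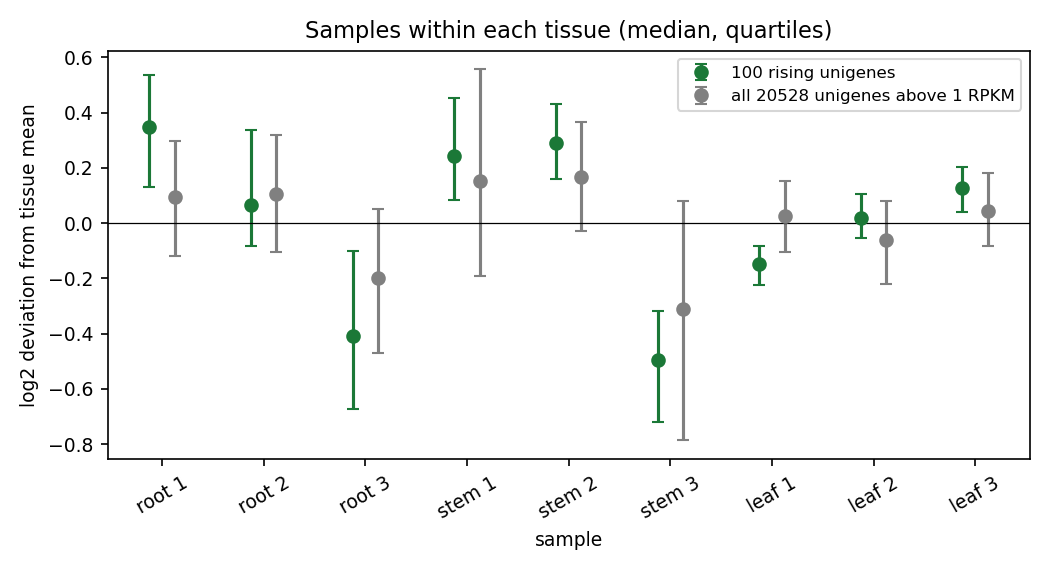
Log2 deviation of each sample from the mean of its tissue, as median (point) and quartiles (bar) over the 100 rising unigenes (green) and over all 20528 unigenes above 1 RPKM (grey). The medians of the set are -0.41 in root replicate 3, -0.50 in stem replicate 3 and -0.15 in leaf replicate 1.

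Among the 6 possible orders of 3 tissues that do not overlap, root below stem below leaf was the most frequent, with 882 of the 20528 unigenes (4.30%). The opposite order, leaf below stem below root, held 507 (2.47%). Leaf below root below stem held 146, root below leaf below stem 30, stem below root below leaf 28 and stem below leaf below root 8. The pool behind the long-read transcriptome held more leaf than root or stem samples, and its part in these counts was not tested. The counts of the first pair depended on scaling, since 689 unigenes rose and 785 fell when all samples were scaled to the same summed RPKM. After median-ratio scaling 1170 rose and 338 fell, and after quantile normalization 1057 rose and 642 fell. Leaving out a sample loosens the rule, so it can only keep or raise the rising count. That count ran from 905 to 1386 with 1 sample left out, and was highest without stem replicate 3. The falling count was not taken with samples left out.

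By the smaller of the 2 steps, large values were more frequent among the rising unigenes than among the falling ones. A smaller step above 2 was found in 170 rising and 4 falling unigenes, and a smaller step above 3 in 58 and 0. Single steps could be large in both, up to 41.7 in the rising 100 and 45.7 in the first 100 falling unigenes. After scaling to the same sum the counts above 2 were 129 and 7, after median-ratio scaling 240 and 3, and after quantile normalization 188 and 8. The first 100 falling unigenes, chosen by the same rule in reverse, had a median smaller step of 1.39, against 3.15 in the rising set. Their median log2 change from root to leaf was -2.59, against 5.82 in the rising set. The falling 100 had a median mean of 25.3 RPKM in root and 3.08 RPKM in leaf, while the rising 100 had 6.20 RPKM in root and 374 RPKM in leaf. No test of these differences was made, since both lists were selected on these values.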

How the data were processed

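RNA-seq values of 9 B1 samples (3 root, 3 stem, 3 leaf) were used. The authors removed low-quality reads, mapped the paired-end reads with HISAT2 2.05 (submitters' processing notes) to their PacBio transcriptome, estimated expression with RSEM and deposited RPKM, which their methods call FPKM. The values have 2 decimals and a smallest value above 0 of 0.01, so what 1 read is worth could not be read from them. Near-identical copies share reads in RSEM and are uncertain. Columns were matched to samples by the number in each sample's description. RPKM values were used as deposited.

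Members were selected as stated in the report, with ties ordered by ID. The members and lists were chosen with earlier results of these data known. Since the rule used every sample, no test was run and no p-value is given. Spread is given as SD over 3 samples, and read counts cannot be taken from these values. The named unigenes were fixed by a rule: the IDs of rank 1 and of the highest leaf mean, and by rank the numbers 2 to 5, 25, 50, 75 and 100, the first unigene outside, and the extremes of level, rise, position of stem and replicate range. The selection code was checked on simulated data with planted rising unigenes, whose steps were large and whose replicates spread less than the real ones. This checks the code and not the members. Alternatives were other floors, a pseudocount, 3 scalings, steps of tissue means, and leaving out each sample. Python 3.11.15, numpy 2.4.6, pandas 2.3.3 and matplotlib 3.10.9 were used.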

Additional observations from a re-analysis of the deposited data

How the results depend on the processing

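No paired analysis was made, since no test was run and the methods do not say whether same-numbered samples came from the same plant. Same-numbered samples are compared in the report as values. Under each alternative the set was chosen anew. The floor moved the set most. A floor of 0.1 RPKM kept 51 of the 100 members, with a median log2 rise of 6.73 and shares of summed RPKM of 0.0765% (root), 0.788% (stem) and 7.24% (leaf). A floor of 5 RPKM left 503 rising unigenes, kept 40 members and gave a rise of 4.66 and shares of 0.336%, 2.14% and 12.6%. Without a floor there were 1541 rising unigenes, 26 members were kept, the median steps were 6.27 and 7.79, the rise was 8.44, 34 unigenes had the larger rise from stem to leaf, and the shares were 0.0247%, 0.333% and 3.92%. Quantile normalization kept 78 members, with shares of the normalized sums of 0.0745%, 0.659% and 6.31%. A pseudocount of 1 RPKM kept 97 members, scaling to equal sums 92, median-ratio scaling 88 and steps of tissue means 78. Leaving out 1 sample gave 905 to 1386 rising unigenes, kept 74 to 100 members and gave shares of 0.130% to 0.218% in root and 9.07% to 12.5% in leaf, and the lowest count of members kept and the highest count of rising unigenes both came without stem replicate 3. Median-ratio scaling gave 62 unigenes with stem below root below leaf and 30 with stem below leaf below root. Scaling to equal sums gave 18 with root below leaf below stem, 13 with stem below leaf below root and 785 falling. Quantile normalization gave 20 with stem below leaf below root and 90 with leaf below root below stem. Beyond the constructed change of the floor, the causes were not tested. The values hold no counts, and the sequenced bases that the study states per library were not used here.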
